A study of Arabidopsis thaliana with 4 samples.

Results

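WRKY genes encode plant transcription factors, and 49 of them were examined among the 27654 genes listed for Arabidopsis thaliana seedlings. They were taken by identifier as members of the WRKY family and sorted by structural group and by known immune, nutrient and abiotic, or developmental role. The rule itself uses no measured value, but the members and roles were chosen with earlier results of these data known. Polyadenylated RNA was sequenced from whole seedlings of ecotype Columbia, with 2 libraries of fip1-2 and 2 of the control. The fip1-2 mutant is named after FIP1, a factor of the complex that cleaves and polyadenylates messenger RNA. The control is the reporter line SKP2B::GUS, which expresses the GUS enzyme from the SKP2B promoter. The labels do not say whether fip1-2 carries the reporter too or what kind of mutation it is. Seedlings of both groups grew in Murashige and Skoog medium for 8 units of time, the unit not being given. The study's title sets the comparison in the context of plant development and root responses to abiotic stress.

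WRKY proteins share a DNA-binding domain with a conserved WRKYGQK heptad and a zinc finger, and they bind the W-box, whose core is TTGAC. Group I proteins carry a pair of such domains, and groups II and III carry one. Many WRKY genes are induced quickly by pathogens, wounding or abiotic stress through mitogen-activated protein (MAP) kinase cascades, and many carry W-boxes in their own promoters. Some act as activators of defence and others as repressors.

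More of the 49 WRKY genes fell than rose in fip1-2 seedlings relative to control. The 49 are a part of the family. Of 23 further WRKY genes, described below, 13 were tested, and 5 rose and 1 fell. By log2 fold change the largest falls among the 49 were those of WRKY54, of the salicylic acid response, and of WRKY40 and WRKY18, of pathogen-induced group IIa. Next came WRKY26, a gene of heat tolerance, which had the smallest limma p of the WRKY genes tested. Of the 49 genes, 47 had a mean normalised read count of at least 10 and were tested with limma over all 19931 genes that reached this level. In fip1-2, 17 of the 47 fell and 4 rose at an adjusted p below 0.05, while 26 did not pass. That is 36.2% lower and 8.51% higher. Over all genes tested, the share lower was 26.8% and the share higher was 27%. The median log2 fold change was -0.22 for the WRKY genes and -0.00 for all genes tested. Of the 47, 5 fell at least 2-fold and 0 rose at least 2-fold, against 3.76% and 4.64% of all genes tested. Both fip1-2 libraries lay below both control libraries for 26 WRKY genes and above them for 8, and the libraries overlapped for 13. These orders of the libraries were seen in 39% and 38.2% of all genes tested. Together the 49 genes took 0.0647% and 0.0666% of normalised reads in the fip1-2 libraries, against 0.0826% and 0.0843% in the control libraries. On the recovered reads, edgeR called 17 WRKY genes lower and 3 higher, against 26.7% and 27.1% of all genes, and DESeq2 called 12 lower and 2 higher, against 17.3% and 19%. WRKY43 reached the level for testing only through its control values. WRKY41 and WRKY55 were not tested, with means of 2.58 and 0.519 in fip1-2 and of 2.42 and 1.45 in control.

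**Figure D1:**
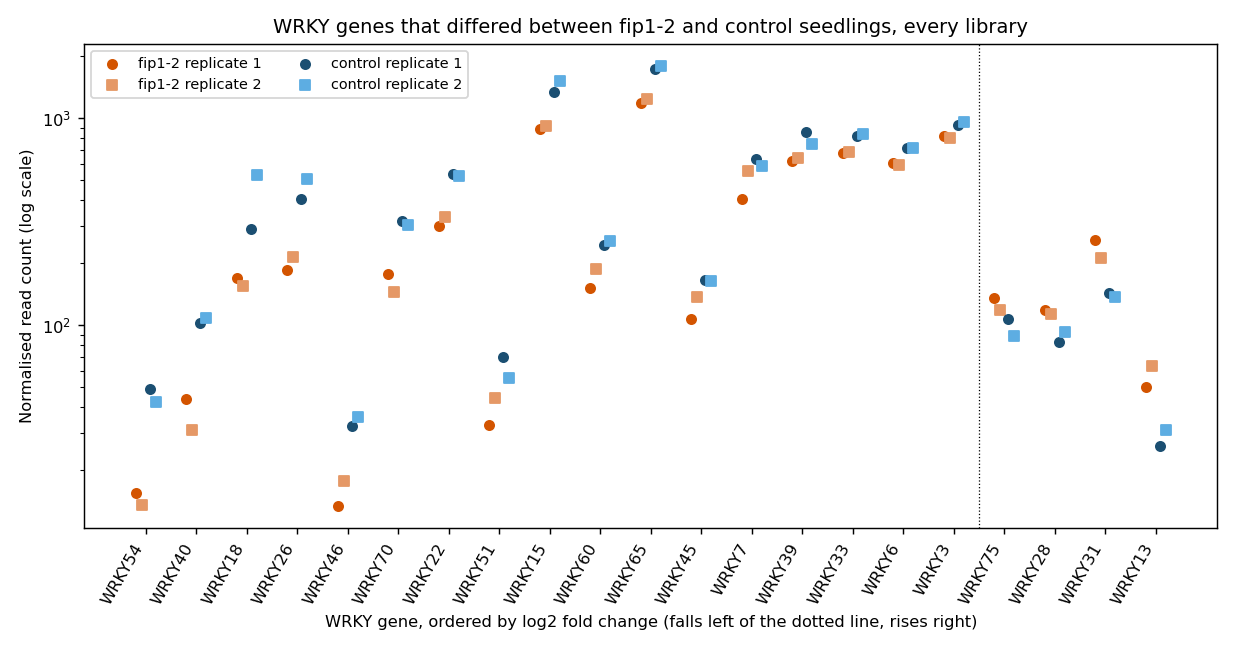
Normalised read count (log axis) of the 21 WRKY genes that passed, in each of the 2 fip1-2 and 2 control libraries, with genes ordered by log2 fold change. Falls stand left of the dotted line, and for all 21 genes the fip1-2 points lie on one side of the control points; WRKY18 has its control libraries far apart at 291 and 531.

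Values are normalised read counts, fold changes are on the log2(value + 2) scale, and errors beside them are standard errors (SE) from limma or standard deviations (SD, n = 2 per group). The libraries held 20908391 and 20874114 reads in genes for fip1-2 and 21056064 and 21104606 for control, so that 1 read was worth 1.02 and 1.04 normalised counts in fip1-2 and 0.961 and 0.971 in control. Log2 values correlated at 0.994 between replicates of either group and at 0.949 to 0.956 between groups. The labels do not name separate cultures for the replicates, and the p-values then measure only the spread between these libraries, which may be technical. FIP1 (AT5G58040) stood at 5217 and 5145 in the libraries labelled fip1-2, against 1796 and 1912 in control (log2 fold change 1.48 ± 0.05 SE, limma adjusted p = 2.98e-11). The mutant's own gene was thus higher, and since the type of mutation is not given this level does not show whether the labels are right. SKP2B (AT1G77000) stood at 254 and 253 in fip1-2 and at 247 and 245 in control and did not pass. In whole seedlings, fewer cells of a type and less RNA per cell cannot be told apart.

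The promoters of the 3 WRKY genes with the largest changes are shown because WRKY genes often carry the W-boxes that their own products bind. WRKY13, the gene with the largest rise, and WRKY29, the one with most W-box cores, were added after their values were seen. Each window is the 250 bases before the annotated RefSeq start on build TAIR10.1, written 5′ to 3′ on the gene's strand, and capitals mark TTGAC or its reverse complement GTCAA. The windows are chr2:17002529-17002778 (minus strand) for WRKY54, chr1:30383311-30383560 (plus) for WRKY40, chr4:15382527-15382776 (plus) for WRKY18, chr4:18334894-18335143 (minus) for WRKY13 and chr4:12291382-12291631 (plus) for WRKY29.
WRKY54: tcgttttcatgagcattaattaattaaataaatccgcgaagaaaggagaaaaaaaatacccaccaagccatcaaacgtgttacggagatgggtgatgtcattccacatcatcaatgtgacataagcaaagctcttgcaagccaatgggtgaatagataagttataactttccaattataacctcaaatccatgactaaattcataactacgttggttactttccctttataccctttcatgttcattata
WRKY40: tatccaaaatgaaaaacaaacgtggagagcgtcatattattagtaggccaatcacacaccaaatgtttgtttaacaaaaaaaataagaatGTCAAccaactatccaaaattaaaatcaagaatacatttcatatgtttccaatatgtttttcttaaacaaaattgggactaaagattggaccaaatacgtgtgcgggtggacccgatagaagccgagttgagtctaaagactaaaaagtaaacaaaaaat
WRKY18: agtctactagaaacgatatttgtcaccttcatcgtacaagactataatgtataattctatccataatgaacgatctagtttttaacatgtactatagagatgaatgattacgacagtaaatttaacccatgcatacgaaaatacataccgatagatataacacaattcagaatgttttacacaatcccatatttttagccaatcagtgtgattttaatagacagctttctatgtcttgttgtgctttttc
WRKY13: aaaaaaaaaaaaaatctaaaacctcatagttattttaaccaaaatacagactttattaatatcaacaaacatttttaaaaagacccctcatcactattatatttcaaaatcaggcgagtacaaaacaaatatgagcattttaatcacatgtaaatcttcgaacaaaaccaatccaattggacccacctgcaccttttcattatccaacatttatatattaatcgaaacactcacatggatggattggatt
WRKY29: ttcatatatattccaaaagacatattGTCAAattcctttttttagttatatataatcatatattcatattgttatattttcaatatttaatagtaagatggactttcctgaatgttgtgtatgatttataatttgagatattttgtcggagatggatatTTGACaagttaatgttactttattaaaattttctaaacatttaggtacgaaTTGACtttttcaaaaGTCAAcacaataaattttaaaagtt
WRKY40 held 1 core, WRKY29 held 4, and the other 3 windows held 0. At least 1 core on either strand was present in 25 of the 49 WRKY windows (51.0%), against 44.9% of the 27442 windows of protein-coding genes. At least 2 were present in 12 WRKY windows (24.5%), against 14.1% of all windows, and at least 3 in 5 (10.2%), against 3.38%. By role, a core was held by 16 of the 26 immune genes (61.5%), 6 of the 10 nutrient and abiotic genes (60%), 2 of the 6 developmental genes (33.3%) and 1 of the 7 genes with no role assigned (14.3%). A core was found in 9 of the 17 genes that fell (52.9%), in 2 of the 4 that rose and in 12 of the 26 that did not pass (46.2%). A match is a string of letters and not a measured binding site, and the window leaves out W-boxes farther upstream. The build behind the deposited counts is not stated in the labels.

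Group IIa holds WRKY18, WRKY40 and WRKY60, pathogen-induced proteins that bind one another and together restrain basal defence. All 3 fell. WRKY40 (AT1G80840) stood at 44.0 and 31.1 in the fip1-2 libraries, against 102 and 109 in the control libraries (log2 fold change -1.46 ± 0.20 SE, limma adjusted p = 2.67e-05). Its groups did not overlap, and the difference was 2.74-fold. WRKY40 overlaps AT1G80850 on the other strand by 51 bases. No strand-marking step is described in the protocol, and reads in this overlap cannot be assigned to either gene. AT1G80850 stood at 117 and 143 in fip1-2 and at 119 and 98.0 in control and did not pass. WRKY18 (AT4G31800) stood at 168 and 154 in fip1-2, against 291 and 531 in control (log2 fold change -1.28 ± 0.19 SE, limma adjusted p = 5.25e-05). Control replicate 2 was far above control replicate 1, while both exceeded the fip1-2 libraries. Without control replicate 2 the log2 fold change was -0.85, without control replicate 1 it was -1.71, and with a robust variance estimate the gene no longer passed (limma adjusted p = 0.100). WRKY60 (AT2G25000) had the smallest fall of the group, with 152 and 187 in fip1-2 and 244 and 254 in control (log2 fold change -0.56 ± 0.12 SE). The summed count of the 3 genes was 364 and 372 in fip1-2, against 637 and 894 in control.

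In group III, 3 of the 6 genes tested fell (50%), 0 rose, and the median log2 fold change was -0.67. Over all genes tested, 26.8% fell and 27% rose. WRKY54 and WRKY70 act together downstream of salicylic acid and restrain leaf senescence, and WRKY46 works with WRKY53 and WRKY70 in basal resistance to bacteria. WRKY54 (AT2G40750) had the largest fall of the 49 genes, with 15.4 and 13.5 in fip1-2 against 49 and 42.7 in control, so that it was 2.91-fold lower (log2 fold change -1.54 ± 0.27 SE, limma adjusted p = 0.000212). WRKY70 (AT3G56400) stood at 176 and 144 in fip1-2 and at 320 and 306 in control (log2 fold change -0.96 ± 0.11 SE, limma adjusted p = 6.76e-06). WRKY46 (AT2G46400) stood at 13.3 and 17.6 in fip1-2 and at 32.7 and 35.9 in control (log2 fold change -1.06 ± 0.28 SE, limma adjusted p = 0.00577). The fip1-2 libraries lay well below the control libraries for all 3, although WRKY54 and WRKY46 are weakly expressed and WRKY46 did not pass in DESeq2 (adjusted p = 0.0851). WRKY53, a promoter of leaf senescence, averaged 74.7 ± 19.0 in fip1-2 and 85.0 ± 0.750 in control (SD) and did not pass. WRKY38, a negative regulator of basal defence, and WRKY30 averaged 11.4 ± 5.94 and 13.4 ± 7.17 in fip1-2, against 14.5 ± 1.47 and 11.1 ± 3.49 in control, with replicates of fip1-2 wide apart. WRKY55 lies tail to tail with WRKY54 on chromosome 2, with 919 bases between them, and had hardly any reads in either group.

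**Figure D2:**
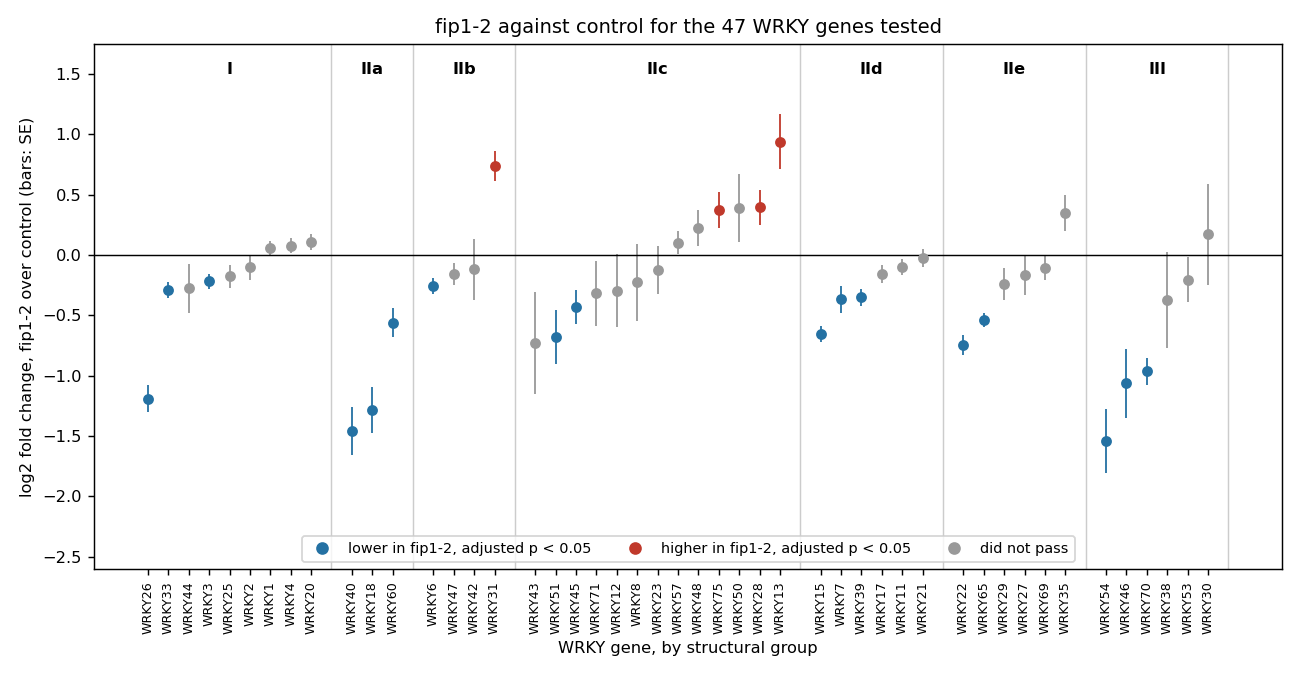
Log2 fold change of fip1-2 over control, with its SE, for the 47 WRKY genes tested, arranged by structural group and coloured by whether the gene passed at an adjusted p below 0.05. All 3 genes of group IIa are lower in fip1-2, and 3 of the 4 rises stand in group IIc, the largest group. Over all genes tested, 26.8% were lower and 27% higher.

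Among other WRKY genes of defence, WRKY22, WRKY33, WRKY3 and WRKY51 fell, while WRKY29, WRKY4 and WRKY50 did not pass. WRKY22 and WRKY29 act downstream of the flagellin receptor's MAP kinase cascade. WRKY22 (AT4G01250) averaged 318 ± 21.9 in fip1-2 and 533 ± 8.43 in control (SD), with a log2 fold change of -0.74 ± 0.08 (SE). WRKY29 averaged 113 ± 3.33 in fip1-2 and 134 ± 7.22 in control, a log2 fold change of -0.24 ± 0.13 (SE) that did not pass (limma adjusted p = 0.148). WRKY33 (AT2G38470), needed for camalexin synthesis and resistance to Botrytis, stood at 676 and 687 in fip1-2 and at 823 and 842 in control. Its fall was small against its level, at -0.29 ± 0.06 (SE) on the log2 scale. WRKY3, which with WRKY4 supports resistance to necrotrophic fungi, fell by 0.22 on the log2 scale and did not pass in DESeq2 (adjusted p = 0.0854) or without fip1-2 replicate 2. WRKY4 averaged 991 ± 11.4 in fip1-2 and 939 ± 67.6 in control (SD) and did not pass. WRKY51, which acts with WRKY50 where salicylic acid represses jasmonate responses, stood at 32.8 and 44.6 in fip1-2 against 70.1 and 55.3 in control. Its log2 fold change of -0.68 ± 0.22 (SE) did not pass in DESeq2, without fip1-2 replicate 1 or without control replicate 1. WRKY50 averaged 28.9 ± 2.65 in fip1-2 and 21.7 ± 4.94 in control and did not pass.

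The calmodulin-binding proteins of group IId gave 3 falls (50%) and 0 rises among 6 genes, with a median log2 fold change of -0.25. Of all genes tested, 26.8% fell and 27% rose. WRKY15 (AT2G23320), a gene of osmotic and salt stress responses and leaf growth, stood at 884 and 921 in fip1-2 against 1342 and 1509 in control (log2 fold change -0.66 ± 0.07 SE, limma adjusted p = 1.21e-06). The groups were far apart relative to their replicates. WRKY7, WRKY11 and WRKY17 restrain basal resistance to bacteria. WRKY7 stood at 405 and 553 in fip1-2 against 633 and 589 in control (log2 fold change -0.37 ± 0.11 SE, limma adjusted p = 0.0122). Without fip1-2 replicate 1 its log2 fold change was -0.14 and did not pass. WRKY11 and WRKY17 had log2 fold changes of -0.10 and -0.16 and did not pass. WRKY39, linked to heat tolerance, averaged 629 ± 13.8 in fip1-2 and 804 ± 74.1 in control (SD), a log2 fold change of -0.35 ± 0.07 (SE). The sixth gene, WRKY21, averaged 575 ± 43.5 in fip1-2 and 584 ± 37.7 in control.

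By role, 11 of the 24 immune WRKY genes tested fell (45.8%) and 1 rose (4.17%), with a median log2 fold change of -0.23. Among all genes tested, 26.8% fell and 27% rose. The immune gene that rose was WRKY28 (AT4G18170), reported to activate the salicylic acid synthesis gene ICS1, with 118 and 113 in fip1-2 against 82.6 and 92.2 in control (log2 fold change 0.40 ± 0.15 SE, limma adjusted p = 0.0357). Without control replicate 1, without either fip1-2 library, or in DESeq2, WRKY28 did not pass. Of the 23 genes with another role or with none assigned, 6 fell (26.1%) and 3 rose, with a median of -0.12. Whether the immune genes differ from the others was not tested. WRKY8, WRKY25, WRKY27 and WRKY48 also belong to the immune genes, had log2 fold changes of -0.23, -0.18, -0.17 and 0.22 and did not pass.

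**Figure D3:**
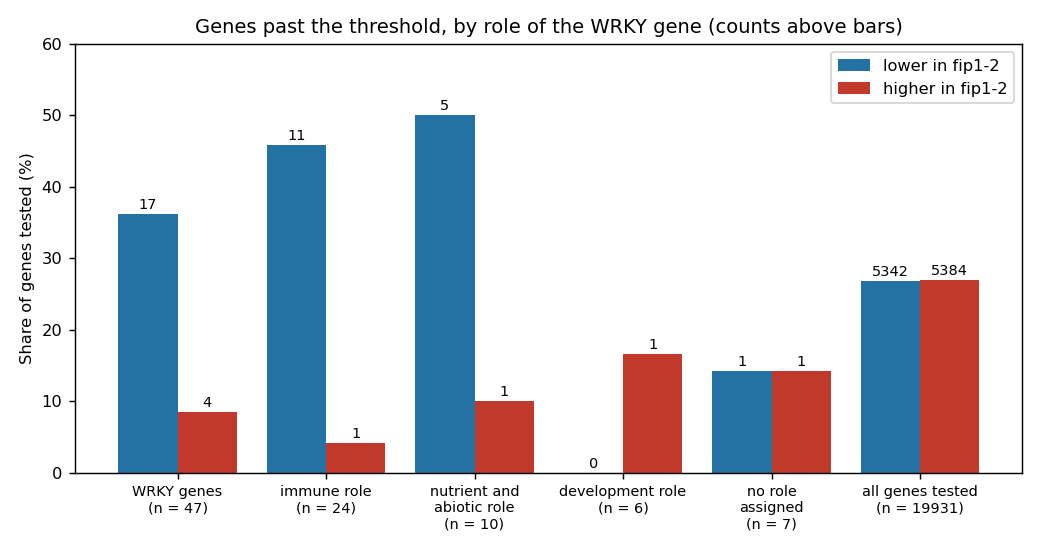
Share of genes tested that were lower or higher in fip1-2 at an adjusted p below 0.05, for all 47 WRKY genes, for each role, and for all 19931 genes, with counts above the bars. The share lower is 45.8% among immune and 50% among nutrient and abiotic WRKY genes, 0 of 6 among developmental ones and 26.8% over all genes.

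Among the 10 nutrient and abiotic stress genes, 5 fell (50%) and 1 rose (10%), with a median log2 fold change of -0.30. The shares over all genes tested were 26.8% and 27%. WRKY26 (AT5G07100), which acts with WRKY25 and WRKY33 in heat tolerance, stood at 184 and 213 in fip1-2 against 408 and 506 in control (log2 fold change -1.19 ± 0.11 SE, limma adjusted p = 6.76e-07). It had the smallest p of group I, and its groups were 2.28-fold apart without overlap. WRKY6 (AT1G62300), a repressor of the phosphate exporter gene PHO1 that also acts in senescence and boron starvation, stood at 607 and 597 in fip1-2 and at 719 in both control libraries. Its log2 fold change was -0.26 ± 0.07 (SE), and it did not pass in DESeq2 (adjusted p = 0.0666). WRKY45, an activator of the phosphate transporter gene PHT1;1, stood at 108 and 136 in fip1-2 against 164 and 163 in control (log2 fold change -0.43 ± 0.14 SE), a difference that did not pass in DESeq2 or without fip1-2 replicate 1. WRKY75, which acts in phosphate starvation and root hair growth, stood at 135 and 118 in fip1-2 against 107 and 88.3 in control. Its log2 fold change of 0.38 ± 0.15 (SE, limma adjusted p = 0.0491) was at the edge of the threshold and did not pass without control replicate 2, without either fip1-2 library, in edgeR or in DESeq2. With the trend of transcript length and GC content removed it was 0.69 (limma adjusted p = 0.00179). WRKY42, another regulator of phosphate homeostasis, WRKY47 and the drought gene WRKY57 had log2 fold changes of -0.12, -0.16 and 0.10 and did not pass. WRKY43 stood at 5.12 and 9.34 in fip1-2 and at 10.6 and 15.5 in control and did not pass either.

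Of the 6 developmental genes, 1 rose (16.7%) and 0 fell, against 27% and 26.8% of all genes tested. WRKY13 (AT4G39410), like WRKY12 a gene of stem secondary walls and flowering time, stood at 50.2 and 63.3 in fip1-2 against 25.9 and 31.1 in control (log2 fold change 0.94 ± 0.23 SE, limma adjusted p = 0.00316). This 1.92-fold difference was the largest rise among the 47 genes. WRKY12, its counterpart in those processes, averaged 17.0 ± 2.34 in fip1-2 and 21.2 ± 1.21 in control (SD) and did not pass. WRKY2, which acts in the zygote, WRKY23, which acts in auxin distribution in the root, WRKY44 (known as TTG2), needed for trichomes and the seed coat, and WRKY71, a promoter of shoot branching, had log2 fold changes between -0.31 and -0.10 and did not pass.

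No role was assigned to 7 genes, of which 1 rose and 1 fell (14.3% each), against 27% and 26.8% of all genes tested. WRKY31 (AT4G22070), of group IIb, stood at 258 and 212 in fip1-2 against 143 and 136 in control (log2 fold change 0.74 ± 0.12 SE, limma adjusted p = 0.000168). WRKY65 (AT1G29280), of group IIe, stood at 1188 and 1239 in fip1-2 against 1735 and 1786 in control (log2 fold change -0.54 ± 0.06 SE, limma adjusted p = 1.65e-06). The differences of WRKY31 and WRKY65 both exceeded the gap between replicates, and they ran in opposite directions. WRKY35, also of group IIe, averaged 106 ± 3.17 in fip1-2 and 82.6 ± 5.38 in control (SD) and did not pass (limma adjusted p = 0.0657). WRKY1, WRKY20 and WRKY69 had log2 fold changes of 0.06, 0.11 and -0.11 and did not pass. In group IIc, which is the largest group here, 3 of 13 genes rose (23.1%) and 2 fell (15.4%). Both shares were below those over all genes tested.

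Per kb of transcript, WRKY65 and WRKY15 had the highest levels of the 49 genes, at 781 and 703 normalised reads per kb in fip1-2 and at 1132 and 1110 in control. Both fell. WRKY1 followed with 451 in fip1-2 and 433 in control, and its normalised read counts were 898 and 929 in fip1-2 against 874 and 882 in control. By level per kb in control, WRKY54 and WRKY46 ranked 37 and 38 of the 49 and were the lowest among the genes that fell. The lowest level was that of WRKY55, with 0.464 per kb in fip1-2 and 1.30 in control.

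**Figure D4:**
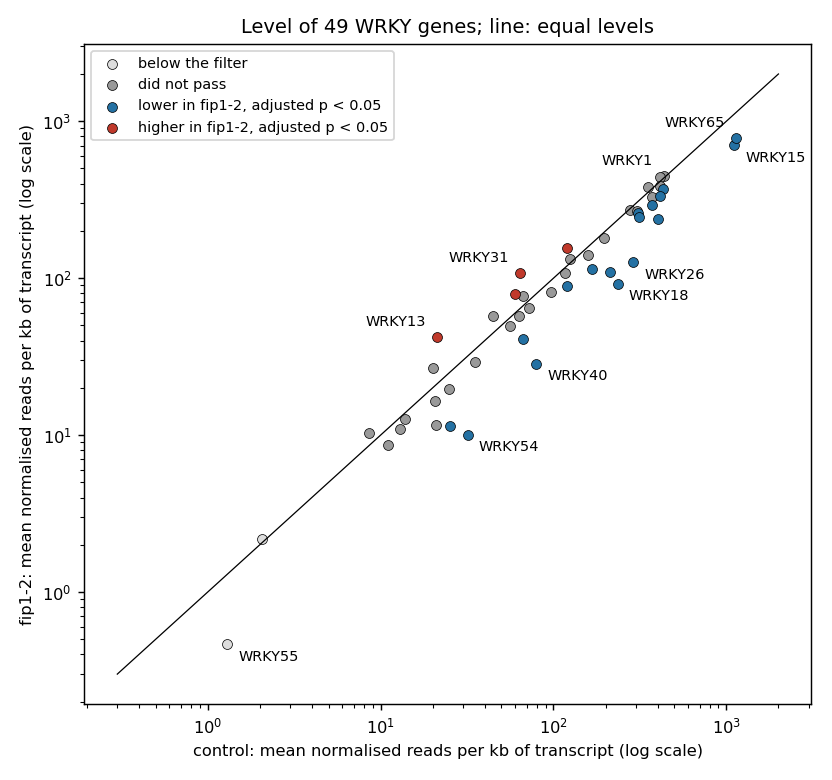
Mean normalised reads per kb of transcript in fip1-2 (vertical, log axis) against control (horizontal, log axis) for the 49 WRKY genes, with the line of equal levels and colours for genes that passed. The most abundant pair, WRKY65 and WRKY15, and the weakly expressed WRKY54 all lie below the line, and WRKY31 and WRKY13 lie above it.

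Across all genes the log2 fold change rose with transcript length (Spearman 0.299, a description over genes that share the 4 libraries), with a median of -0.25 among the shortest 10% of transcripts and 0.26 among the longest 10%. Over the 47 WRKY genes the same correlation was 0.292, and their median transcript of 1555 bases was shorter than the 1748 bases of all genes tested. With the trend of length and GC content removed, 15 WRKY genes were lower and 4 higher, against 26.9% and 23.5% of all genes, and their median was -0.16. WRKY45 and WRKY51 were then no longer called. The labels disagree on the assay, since the design text names poly(A) tag sequencing and the extract protocol describes fragmented mRNA.

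Of the 49 genes, 9 overlap a gene on the other strand, and without strand information their counts are uncertain. Among the 21 that passed these are WRKY40, described above, and WRKY33, which overlaps AT2G38480 by 26 bases. The longer overlaps belong to genes that did not pass or were not tested. WRKY53 shares 341 bases with 3xHMG-box2, a far more abundant gene that rose and averaged 1329 ± 54.0 in fip1-2 and 1035 ± 124 in control (SD). WRKY69 shares 373 bases with AT3G58720, which rose, and WRKY1 shares 166 bases with SCL21, which fell. The other 4 genes with such a partner are WRKY2, WRKY4, WRKY29 and WRKY41.

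A further 23 WRKY genes outside the 49 had a different balance. Of the 13 tested, 5 rose and 1 fell, and the median log2 fold change was 0.06. WRKY14 rose to 647 and 704 in fip1-2, against 453 and 439 in control (log2 fold change 0.60 ± 0.07 SE), and WRKY61 averaged 173 ± 0.590 in fip1-2 and 110 ± 2.16 in control (SD). WRKY72, reported to act in basal immunity, fell by 0.51 on the log2 scale. WRKY19 had a log2 fold change of 0.44 and did not pass once the trend of transcript length was removed, when 2 of the 23 were higher. Over all 72 WRKY genes, 60 were tested, 18 fell (30%) and 9 rose (15%), with a median of -0.16, against 26.8% and 27% of all genes tested. The difference between the 49 and these 23 genes was not tested.

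MAP kinases that act upstream of WRKY proteins and VQ proteins that bind them were examined as well, with 26.8% of all genes tested lower and 27% higher. In the MAP kinase cascade, 6 of 9 genes fell, 0 rose and 3 did not pass, with a median log2 fold change of -0.35. MKK9 had the largest fall, with 207 and 193 in fip1-2 against 404 and 380 in control (log2 fold change -0.96 ± 0.09 SE). MKK1, MPK3 and MPK4, kinases of the flagellin response, had log2 fold changes of -0.67, -0.39 and -0.35, all past the threshold, whereas MPK6 averaged 1709 ± 34.0 in fip1-2 and 1654 ± 22.2 in control (SD) and did not pass. VQ proteins bind WRKY domains. Of 12 VQ genes, 8 were tested, 5 fell, 0 rose and 3 did not pass. SIB1 and SIB2, which bind WRKY33, fell by 1.45 and 1.10 on the log2 scale. JAV1, a repressor of jasmonate defence, and MKS1, which links MPK4 to WRKY33, fell by 1.22 and 0.63.

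Reported targets of WRKY proteins did not move one way. Of 19, 16 were tested, 7 fell (43.75%) and 5 rose (31.25%), with a median log2 fold change of -0.16. Over all genes tested, 26.8% were lower and 27% higher, so movement both ways is not particular to these targets. PHT1;1, the phosphate transporter gene, was higher, with 3297 and 4064 in fip1-2 against 2461 and 2278 in control (log2 fold change 0.63 ± 0.08 SE). BOR1, a boron transporter gene, averaged 1142 ± 64.5 in fip1-2 and 730 ± 5.97 in control (SD). PDF1.2, a defensin gene of the jasmonate response, stood at 1.02 and 7.27 in fip1-2 against 68.2 and 46.6 in control. PR1, the marker of the salicylic acid response, stood at 6.15 and 19.7 in fip1-2 against 96.1 and 340 in control (log2 fold change -3.78 ± 0.47 SE, limma adjusted p = 1.11e-05). Control replicate 2 was 3.54 times control replicate 1 for PR1, and it was the high library for WRKY18 as well. Without control replicate 2 the log2 fold change of PR1 was -2.88. In the salicylic acid pathway, a list that also holds PR1 and EDS1, 10 of 16 genes tested fell (62.5%) and 1 rose (6.25%). The median of this pathway was -0.38. ACD6, an ankyrin protein that promotes salicylic acid signalling, stood at 52.2 and 63.3 in fip1-2 against 728 and 799 in control. PBS3, which acts in salicylic acid synthesis, averaged 7.74 ± 2.26 in fip1-2 and 79.7 ± 19.0 in control (SD). PR2 had a log2 fold change of -3.84, and of -2.94 without control replicate 2. ICS1, which encodes the isochorismate synthase of salicylic acid synthesis, was the gene that rose, with 511 and 508 in fip1-2 against 291 and 319 in control (log2 fold change 0.74 ± 0.08 SE).

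**Figure D5:**
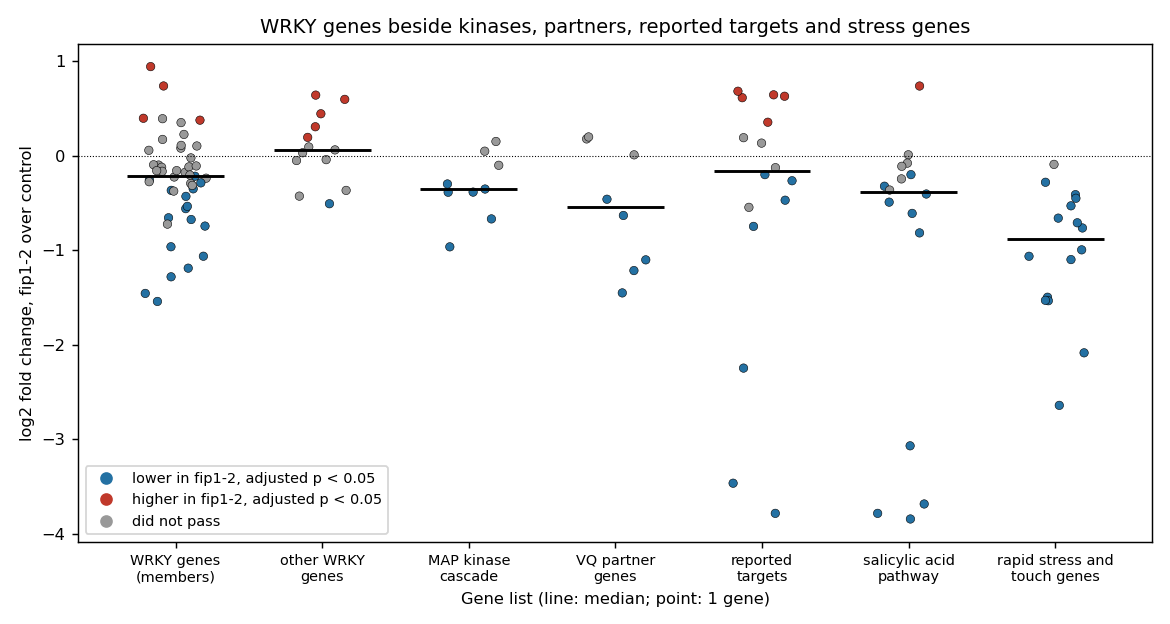
Log2 fold change of fip1-2 over control for each gene tested (points, coloured by call) and the median (line) of the 49 WRKY genes, the other WRKY genes and 5 related lists. The median is -0.22 for the WRKY genes, 0.06 for the other WRKY genes and -0.88 for rapid stress and touch genes.

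Genes known for rapid induction by stress or touch were lower along with the WRKY genes. Of 16, 15 fell (93.75%) and 0 rose, against 26.8% and 27% of all genes tested, with a median log2 fold change of -0.88. Their summed count was 7607 and 7902 in fip1-2, against 11300 and 10708 in control. TCH3, a calmodulin-like touch gene, fell by 1.53 on the log2 scale and ERF5, a transcription factor gene of the ethylene response family, by 1.06. The touch genes TCH2 and TCH4 moved less, with log2 fold changes of -0.28 and -0.09, and TCH4 did not pass. STZ, a zinc finger gene of abiotic stress responses, averaged 157 ± 10.9 in fip1-2 and 452 ± 97.1 in control (SD). CAF1a, a deadenylase subunit gene, stood at 98.3 and 115 in fip1-2 against 866 and 525 in control. Several WRKY genes described above belong to the same class of rapidly induced genes, and the part of handling in their lower counts was not tested.

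Marker genes of organs differed too, in data where 26.8% of all genes tested were lower and 27% higher. Of 5 shoot markers 4 rose and 0 fell, with summed counts of 499513 and 526213 in fip1-2 against 393430 and 390808 in control. Of 6 root markers 4 rose and 0 fell, with sums of 87995 and 83883 in fip1-2 against 80264 and 78142 in control. All 4 seed markers rose, with sums of 3159 and 1084 in fip1-2 against 74.0 and 19.4 in control. Of 4 flower markers, SEP3 stood at 25.6 and 19.7 in fip1-2 against 70.1 and 91.2 in control and fell, PI and AP3 were too low to test, and AG had no read. The list summed to 29.7 and 25.9 in fip1-2 against 89.4 and 111 in control. Whether these markers' differences have a part in the lower WRKY counts was not tested.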

How the data were processed

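RNA sequencing of whole seedlings gave 2 fip1-2 and 2 control libraries, grouped by the genotype in the labels. The deposited table gives a normalised signal for each gene, namely read counts that the authors divided by a size factor per library, per the file's values. Every value (100%, within 1e-06) was a whole multiple of 1 read, so whole reads were recovered. Per the submitters' processing notes, the tools were CASAVA 1.4, HISAT2, HTSeq, FastQC and edgeR, with genome build, annotation and counting options not given in the sources used here.

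Genes with a mean of at least 10 entered limma 3.58.1 in R 4.3.3 as log2(value + 2) (variance trend, genotype as the only term, two-sided, Benjamini-Hochberg over all 19931 genes, threshold 0.05). edgeR 4.0.16 (quasi-likelihood) and DESeq2 1.42.0 were run on the recovered reads, with edgeR as an alternative since the deposited values are not counts. Other alternatives changed the pseudocount, filter, variance estimate and scaling, removed a trend of length and GC content, or left out a library. The depth of 20874114 to 21104606 reads per library gave a median SE of 0.094 on the log2 scale. Replicates varied beyond sampling noise (chi-square 2.79 per gene in fip1-2, 3.03 in control) and were counted separately. In simulated data of this comparison with 19854 genes tested, limma found 74.6% of the genes altered 1.5-fold, 95.5% at 2-fold and 100% at 4-fold. It called 5 of 19655 unaltered genes. The simulation altered few genes and took each gene's dispersion from a trend. Recovery among many changed genes, or for genes with more variable replicates, was thus not measured.

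The members, roles and lists were chosen with earlier results of these data known. Library values are given for called WRKY genes at least 2-fold changed, for the smallest p in each group and for the 3 highest levels per kb, with others added after their values were seen. In the other lists up to 4 called genes with the smallest p are named, and MPK6, TCH2 and TCH4 were added. Names, transcript lengths and promoters come from RefSeq (TAIR10.1), which held 27444 of the identifiers.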

Additional observations from a re-analysis of the deposited data

How the results depend on the processing

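Of 692 values of single WRKY genes under the alternatives, 658 kept their side of the threshold, 29 lost the call and 5 gained one. Among genes called in the main fit, 0 values reversed direction. Some genes that were not called did change sign, such as WRKY23, with log2 fold changes from -0.41 to 0.17, and WRKY30, from -0.32 to 0.67. With no filter on low values, 2 WRKY genes were higher and 14 lower, against 21.9% and 20.7% of all genes tested in that setting. With DESeq2, 2 were higher and 12 lower, and 3443 genes in all were lower. Leaving out 1 library at a time gave 2 to 4 higher and 14 to 18 lower WRKY genes and a median log2 fold change between -0.26 and -0.17, and over all genes 4423 to 5104 higher and 4466 to 4759 lower. The count of 2 higher came without fip1-2 replicate 1 and without fip1-2 replicate 2. Under quantile normalization 5 WRKY genes were higher and 17 lower, against 25.2% and 27.6% of all genes tested. Under every alternative the median of the WRKY genes was below that of all genes tested. With the replicate number as a block, 17 WRKY genes were lower and 4 higher, and 11004 genes were called (5517 higher and 5487 lower). Over genes, the deviations of same-numbered libraries had a correlation of -0.0117. With 2 libraries per group this value cannot show whether same-numbered libraries were grown or prepared together, and the labels do not say. WRKY30, WRKY38 and WRKY43, with means between 7.23 and 14.5 in either group, rest on few reads.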
